A study of Homo sapiens with 18 samples.

Results

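The genes described here are 58 nucleolar factors that process ribosomal RNA or assemble ribosomal subunits, chosen by symbol from a list of such factors. The choice was made with earlier results of these data known, so member shares set beside those of all genes are description only. Of the 58 symbols, 57 matched a row of the count table, and all 57 were among the 15307 genes with enough counts to be tested; BOP1 was not matched and has no value. They fall into a small-subunit arm of 27 tested genes, a large-subunit arm of 18, the proteins of small nucleolar ribonucleoproteins (snoRNPs) with 9, and 3 abundant multifunctional nucleolar proteins. The RNA came from MDA-MB-231, an established human breast cancer line that the labels give as genotype WT, sequenced 72 hours after lipofection of an siRNA. The groups were siRagC1 and siRagC2, which received one of 2 independent siRNAs against RagC, and siCtrl, which received a control siRNA, with 6 libraries each and 18 in all. RagC, the product of RRAGC, is one partner of the GTPase pair that holds the nutrient-sensing kinase complex mTORC1 at the lysosome, and the study silenced it to find genes that change when mTORC1 is repressed. The labels call the libraries biological replicates but do not say whether they came from separate cultures, so the p-values below reflect the spread between these libraries, which may be technical.

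Ribosomes are made in the nucleolus, where RNA polymerase I transcribes a long precursor that carries the RNA of both subunits. The small-subunit processome forms on the front of that precursor around the U3 snoRNA and cuts and folds the small-subunit RNA, a separate chain of assembly factors builds the large subunit, and snoRNPs modify bases and sugars of both. mTORC1 is known as a promoter of ribosome synthesis at several steps, from transcription by polymerase I to translation of ribosomal protein mRNAs, so the expression of these factors is often followed in cells with altered mTORC1 signalling.

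The libraries held 14.8 M to 71.6 M counts, with medians of 36.1 M for siRagC1, 24.6 M for siRagC2 and 21.4 M for siCtrl. RRAGC itself averaged 23.9 ± 7.58 CPM (counts scaled to library size and composition) with siRagC1 and 27.8 ± 8.30 CPM with siRagC2, against 62.4 ± 2.75 CPM with siCtrl (SD, n = 6 each), so 38.3% and 44.4% of the control level remained. The mesenchymal-type markers VIM, CD44, AXL, CAV1 and ZEB1 all exceeded 100 CPM in every library, SPARC lay between 0.470 and 2.28 CPM, and the luminal markers ESR1, PGR and FOXA1 stayed at or under 0.164 CPM with KRT20 at 0. Of the other luminal or epithelial markers, GATA3 lay between 6.18 and 10.3 CPM and CDH1 between 0.42 and 1.6 CPM. CAV1 was the mesenchymal-type marker that moved with the siRNAs, at 412.0 ± 9.23 CPM with siRagC1 and 406.0 ± 23.8 CPM with siRagC2, against 464.0 ± 21.7 CPM with siCtrl (adjusted p = 0.0312 and 0.0131 in edgeR), and its part in the results below was not tested. PTPRC, CD14, CD3E, CDH5 and ALB, markers of other cell types, did not exceed 1.05 CPM in any library. The library codes form a D1103 series, with replicates 1 and 2 of each group, and a D1221 series, with replicates 3 to 6; what the codes stand for is not stated, and the fit carries a term for them. In bulk RNA, fewer cells expressing a gene and less of its RNA per cell cannot be told apart.

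A modest part of the factors fell with each siRNA and none rose. With siRagC1, 10 of 57 members (17.5%) were lower at an adjusted p under 0.05, in a table where 0.627% of all tested genes were called lower and 1.41% higher. With siRagC2, 14 of 57 (24.6%) were lower, where 1.36% of all genes were called lower and 1.87% higher. The changes were small: the log2 fold changes of the members ran from -0.30 (NOL6) to 0.20 (NOP53) with siRagC1 and from -0.39 (RRS1) to 0.19 (NOP53) with siRagC2, with medians of -0.11 for each, while the median of all tested genes was 0.0051 with siRagC1 and 0.0047 with siRagC2. Most members leaned the same way without passing the test. The log2 fold change was negative for 53 of 57 members with siRagC1 and 52 with siRagC2, where 48.3% of all genes were negative in each comparison, and at an unadjusted p under 0.05 there were 32 and 34 lower members, where 7.81% and 8.58% of all genes were lower by that rule. No member was higher by that rule, where 9.26% of all genes were with siRagC1 and 9.93% with siRagC2. DESeq2 and limma-voom also called no member higher. Of all genes, DESeq2 called 440 higher with siRagC1 and 489 with siRagC2, and limma-voom 225 and 298. 

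Both siRNAs lowered 7 members (12.3%), where 0.314% of all genes were called lower with both, and 0 rose with both, where 0.771% of all genes did. These were UTP4 and NOL6 of the small-subunit arm, NOP16, GNL3 and BRIX1 of the large-subunit arm, the snoRNP protein NOP58 and the helicase DDX21. The 2 comparisons share the 6 siCtrl libraries, so the count with both is not a repeat in separate controls. In 4 members every siRagC1 library lay below every siCtrl library (7.02% of members, against 0.314% of all genes), and in 6 members every siRagC2 library did (10.5%, against 0.542%). Compared with the control library of the same number, 26 members (45.6%) were lower in all 6 siRagC1 libraries and 25 (43.9%) in all 6 siRagC2 libraries, where 7.17% and 6.11% of all genes were. Whether libraries of the same number are pairs is not stated in the labels.

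The counts of called members depended on the code series term and on single libraries. Without the term 0 members were called with either siRNA (20 and 22 lower at an unadjusted p under 0.05). The whole table then held 1 gene called lower and 6 higher with siRagC1, and 7 lower and 12 higher with siRagC2. The D1221 libraries alone gave 0 and 0 members (17 and 19 unadjusted). Of all genes, D1221 alone called 1 lower and 0 higher with siRagC1, and 0 lower and 1 higher with siRagC2. The D1103 libraries alone gave 7 members with siRagC1 and 14 with siRagC2, all lower. Over all genes the D1103 libraries alone called 211 lower with siRagC1 and 531 with siRagC2, where the fit to all libraries called 96 and 208, so the member counts did not grow with the background. For siRagC1 the count was 2, 1, 5, 4, 6 and 17 when its replicates 1 to 6 were left out in turn, and 1, 2, 5 and 4 without siCtrl replicates 1, 2, 4 and 5. For siRagC2 it was 4, 5 and 8 without its replicates 1, 4 and 5, and 3, 7 and 9 without siCtrl replicates 1, 2 and 4. The 7 members lower with both siRNAs became 0 without siRagC1 replicate 2 or siCtrl replicate 1, 2 without siRagC1 replicate 1, siRagC2 replicate 4 or siCtrl replicate 5, 1 without siCtrl replicate 2, 3 without siRagC1 replicates 3, 4 or 5, siRagC2 replicate 1 or siCtrl replicate 4, 4 without siRagC2 replicate 5, and 12 without siCtrl replicate 6. Genes called lower with both siRNAs over the whole table were not counted in these fits. With the replicate number as a block, siRagC2 called 19 members: the same 14 with LTV1, NOP2, NOP56, RRP12 and UTP15. The genes called lower in the whole table went up more, to 426 with the block against 208 without it.

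**Figure D1:**
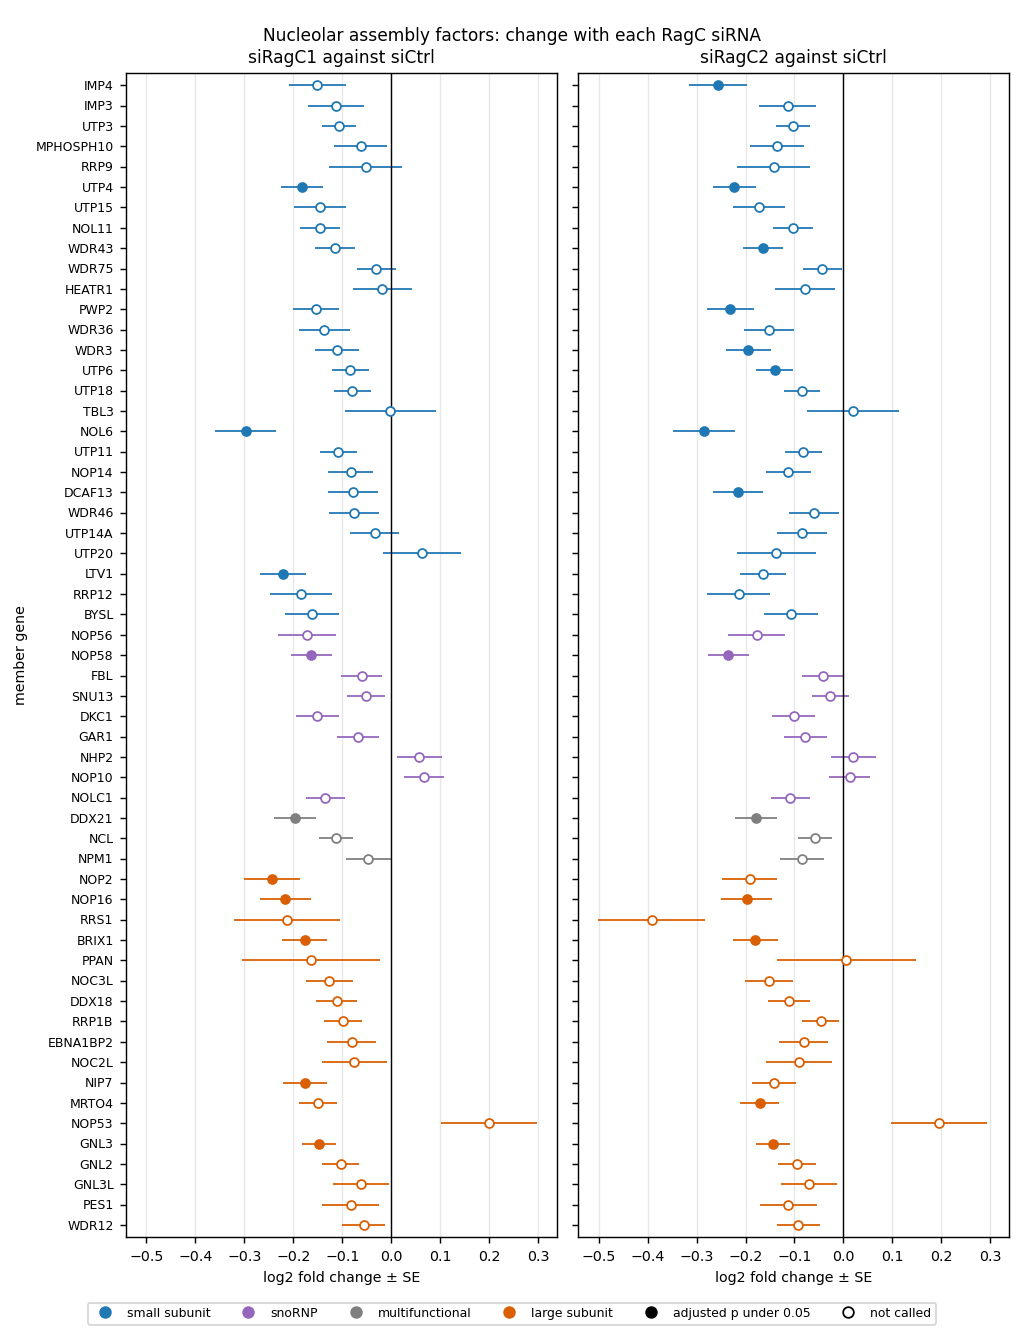
The log2 fold change ± SE of each of the 57 tested members (rows, grouped by arm and role) with siRagC1 (left) and siRagC2 (right) against siCtrl; filled points have an adjusted p under 0.05 in edgeR's quasi-likelihood test. Points lie left of 0 for 53 and 52 members, and the 10 and 14 filled points are all on the lower side.

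Within the small-subunit arm, 3 of 27 members fell with siRagC1 and 8 with siRagC2, and 2 fell with both. UtpA, the complex that first binds the front of the precursor, has 6 members here, of which UTP4 fell with siRagC1 and UTP4 and WDR43 with siRagC2. UTP4 (ENSG00000141076), the subunit also known as cirhin, had a lowest, median and highest level of 63.2, 74.0 and 79.1 CPM with siRagC1 and 57.8, 72.1 and 77.2 CPM with siRagC2, against 73.1, 80.3 and 92.4 CPM with siCtrl. The groups overlap at the edges, with the lowest control values in the D1103 series, and each siRNA library was below the control of its own number in 6 of 6 numbers. UTP4 fell by 11.9% with siRagC1 (log2 fold change -0.18 ± 0.0434 SE, adjusted p = 0.0321) and fell by 14.3% with siRagC2 (-0.22 ± 0.0436, adjusted p = 0.00847), and the call held in 10 and 18 of 18 fits that left out 1 library. WDR43, another UtpA subunit, had 64.4, 73.9 and 81.7 CPM with siRagC1 and 62.5, 72.5 and 76.9 CPM with siRagC2, against 73.9, 79.0 and 86.9 CPM with siCtrl (lowest, median, highest). The highest siRNA libraries overlapped the lowest controls. WDR43 fell with siRagC2 (-0.16 ± 0.0409, adjusted p = 0.0295; held in 12 of 18 such fits), while its -0.11 ± 0.0406 with siRagC1 did not pass (adjusted p = 0.137). WDR75 was the UtpA member closest to the controls on average over both siRNAs, at -0.03 and -0.04, and the 6 ranged from -0.18 to -0.02 with siRagC1 and from -0.22 to -0.04 with siRagC2.

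UtpB, a second processome complex of WD-repeat proteins, had 0 of 6 members called with siRagC1 by edgeR (5 at an unadjusted p under 0.05, and 1, PWP2, by DESeq2) and 3 with siRagC2, namely PWP2, WDR3 and UTP6. PWP2 had 44.5, 45.2 and 50.9 CPM with siRagC1 and 41.4, 44.5 and 47.1 CPM with siRagC2, against 48.5, 52.2 and 54.9 CPM with siCtrl. All 6 siRagC2 libraries were below all 6 controls, while 4 of 6 siRagC1 libraries were. PWP2 fell by 14.8% with siRagC2 (-0.23 ± 0.0475, adjusted p = 0.011), a call kept in 18 of 18 fits with 1 library left out. With siRagC1 it stood at -0.15 ± 0.0470 (adjusted p = 0.0865). It passed with siRagC1 in 2 of 18 such fits, including the one without siCtrl replicate 6 (adjusted p = 0.0361). WDR3 had 89.9, 97.9 and 111.0 CPM with siRagC1 and 82.6, 93.8 and 99.6 CPM with siRagC2, against 91.9, 108.0 and 122.0 CPM with siCtrl. Its siRagC2 libraries sat lowest, overlapping the controls, and it fell by 12.6% with siRagC2 (-0.19 ± 0.0455, adjusted p = 0.0218; held in 15 of 18 such fits). UTP6 had 60, 61.2 and 65.8 CPM with siRagC1 and 52.7, 61.1 and 62.5 CPM with siRagC2, against 61.9, 66.1 and 71.0 CPM with siCtrl, again with overlap. It fell by 9.30% with siRagC2 (-0.14 ± 0.0383, adjusted p = 0.045), a call that held in 5 of 18 fits with 1 library left out. TBL3, by contrast, had log2 fold changes of -0.0018 ± 0.0931 and 0.02 ± 0.0939, and its 26.1 CPM in siCtrl replicate 6 lay far below the 40.1 CPM of the next control. Without that library TBL3 stood at -0.10 with siRagC1 (adjusted p = 0.353) and -0.08 with siRagC2 (adjusted p = 0.513).

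Of the 5 proteins of the Mpp10 complex and the U3 particle, IMP4 fell, and did so with siRagC2. IMP4, which with IMP3 and MPHOSPH10 pairs the U3 snoRNA to the precursor, had 44.2, 48.0 and 50.2 CPM with siRagC1 and 38.3, 44.1 and 49.4 CPM with siRagC2, against 45.7, 53.3 and 56.6 CPM with siCtrl. The siRagC2 libraries reached lowest and overlapped the controls. IMP4 fell by 16.3% with siRagC2 (-0.26 ± 0.0594, adjusted p = 0.02; held in 13 of 18 fits with 1 library left out), and the value was -0.15 ± 0.0587 with siRagC1 (adjusted p = 0.182). RRP9, the U3-specific protein, was the member of this group nearest to the controls on average over both siRNAs, at -0.05 ± 0.0744 and -0.14 ± 0.0753 (adjusted p = 0.776 and 0.323). It also has an outlying control, 25.2 CPM in siCtrl replicate 6, without which RRP9 stood at -0.13 with siRagC1 (adjusted p = 0.18) and -0.22 with siRagC2 (adjusted p = 0.0241). With siRagC2, RRP9 passed in 1 of 18 fits with 1 library left out.

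NOL6, the human counterpart of yeast Utp22, showed the clearest separation of the small-subunit arm. NOL6 (ENSG00000165271) had 81.7, 102.0 and 108.0 CPM with siRagC1 and 89.6, 99.2 and 107.0 CPM with siRagC2, against 110.0, 122.0 and 126.0 CPM with siCtrl. All 12 siRNA libraries were below all 6 controls. NOL6 fell by 18.6% with siRagC1 (-0.30 ± 0.0625, adjusted p = 0.0163) and fell by 17.9% with siRagC2 (-0.28 ± 0.0628, adjusted p = 0.016). The calls held in 15 and 17 of 18 fits with 1 library left out. DCAF13, the counterpart of yeast Sof1, had 70.5, 79.9 and 94.2 CPM with siRagC1 and 63.3, 74.2 and 80.5 CPM with siRagC2, against 73.9, 84.8 and 98.6 CPM with siCtrl. Both siRNA ranges overlapped the controls. DCAF13 fell with siRagC2 (-0.22 ± 0.0517, adjusted p = 0.0242; held in 14 of 18 such fits) and stood at -0.08 ± 0.0513 with siRagC1 (adjusted p = 0.457). UTP20, a large helical-repeat factor, was the only small-subunit member above 0 with siRagC1, at 0.06 ± 0.0797 (adjusted p = 0.74), and stood at -0.14 ± 0.0803 with siRagC2 (adjusted p = 0.391). 

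Late small-subunit factors, which accompany the particle to the cytoplasm, had negative values throughout. LTV1, which is shed from the particle in the cytoplasm, had 31.9, 35.1 and 39.2 CPM with siRagC1 and 32.1, 37.4 and 39.4 CPM with siRagC2, against 37.7, 42.2 and 45.0 CPM with siCtrl. Under the lowest control value lay 4 of 6 libraries of each siRNA. LTV1 fell by 14.2% with siRagC1 (-0.22 ± 0.0469, adjusted p = 0.0169), a call held in 17 of 18 fits with 1 library left out. With siRagC2 it stood at -0.16 ± 0.0473, which did not pass (adjusted p = 0.0592) but did with the replicate block (adjusted p = 0.0366) and without siRagC2 replicate 2 (adjusted p = 0.0328). LTV1 passed with siRagC2 in 1 of 18 fits with 1 library left out. RRP12, an export factor, stood at -0.18 ± 0.0633 and -0.21 ± 0.0637 (adjusted p = 0.123 and 0.067; 0.0307 with siRagC2 under the block). Without siCtrl replicate 6, RRP12 passed with both, at -0.23 and -0.26 (adjusted p = 0.0246 and 0.0103). Of the 18 fits with 1 library left out, RRP12 passed in 1 with siRagC1 and in 2 with siRagC2. BYSL stood at -0.16 ± 0.0551 and -0.11 ± 0.0553 (adjusted p = 0.12 and 0.313). It passed with siRagC1 in 1 of 18 such fits, the one without siRagC1 replicate 5 (adjusted p = 0.037).

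The large-subunit arm had 5 of 18 members lower with siRagC1 and 4 with siRagC2, 3 of them with both. Among the early and middle factors, 10 of the 18, NOP2, NOP16 and BRIX1 were lower with siRagC1 and NOP16 and BRIX1 with siRagC2. NOP16 (ENSG00000048162), a factor of early particles, had 37.0, 38.4 and 41.8 CPM with siRagC1 and 36.9, 39.5 and 41.4 CPM with siRagC2, against 39.4, 44.9 and 49.0 CPM with siCtrl. The one control within the siRNA range was siCtrl replicate 6, the lowest of the 6. NOP16 fell by 13.9% with siRagC1 (-0.22 ± 0.0514, adjusted p = 0.0317) and fell by 12.8% with siRagC2 (-0.20 ± 0.0518, adjusted p = 0.0376), each call held in 11 of 18 fits with 1 library left out. BRIX1 (ENSG00000113460), the counterpart of yeast Brx1, had 56.6, 62.3 and 71.6 CPM with siRagC1 and 59.8, 63.9 and 65.6 CPM with siRagC2, against 65.8, 72.4 and 76.7 CPM with siCtrl. The siRagC2 libraries were all below the controls and 2 siRagC1 libraries were not. BRIX1 fell by 11.6% with siRagC1 (-0.18 ± 0.0462, adjusted p = 0.0473) and fell by 11.7% with siRagC2 (-0.18 ± 0.0464, adjusted p = 0.0347), calls that held in 3 and 9 of 18 fits with 1 library left out. Its siRagC1 call was lost with upper-quartile factors, no filter on low counts or only the compared groups, and its siRagC2 call with no filter.

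NOP2, a methyltransferase of the large-subunit RNA, had 81.2, 94.2 and 98.5 CPM with siRagC1 and 85.1, 97.2 and 101.0 CPM with siRagC2, against 101.0, 107.0 and 119.0 CPM with siCtrl. All 12 siRNA libraries lay below all controls. NOP2 fell by 15.6% with siRagC1 (-0.24 ± 0.0565, adjusted p = 0.0292; held in 13 of 18 fits with 1 library left out). With siRagC2 the value of -0.19 ± 0.0567 did not pass (adjusted p = 0.0657), but did with the replicate block (adjusted p = 0.0206) and without siCtrl replicate 6 (adjusted p = 0.0372). NOP2 passed with siRagC2 in 2 of 18 fits with 1 library left out. RRS1, which helps to bring the 5S ribonucleoprotein into the large subunit, had the most negative value of any member with siRagC2. It had 15.8, 17 and 17.4 CPM with siRagC1 and 13.2, 14.4 and 17.9 CPM with siRagC2, against 11.9, 20.6 and 22.7 CPM with siCtrl. The lowest value of all belonged to siCtrl replicate 6, below every siRNA library. With it, RRS1 stood at -0.21 ± 0.108 and -0.39 ± 0.110 (adjusted p = 0.324 and 0.0546), and without it at -0.32 and -0.50 (adjusted p = 0.0227 and 0.00113). Of the 18 fits with 1 library left out, RRS1 passed in 1 with siRagC1 and in 2 with siRagC2. RRP1B, at -0.10 and -0.05, was the early or middle factor closest to the controls on average over both siRNAs, and PPAN, at a median of 3.65 CPM with siRagC1, 4.36 CPM with siRagC2 and 4.67 CPM with siCtrl, was the least abundant member.

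The 3 nucleolar GTPases differed in level and in the test. GNL3, also called nucleostemin and known in proliferating cells, was the one called. GNL3 (ENSG00000163938) had 127.0, 151.0 and 161.0 CPM with siRagC1 and 134.0, 150.0 and 156.0 CPM with siRagC2, against 143.0, 166.0 and 177.0 CPM with siCtrl. The groups overlap across the code series but not within either one. It fell by 9.70% with siRagC1 (-0.15 ± 0.0351, adjusted p = 0.0324) and fell by 9.49% with siRagC2 (-0.14 ± 0.0352, adjusted p = 0.0272), calls held in 10 and 12 of 18 fits with 1 library left out. GNL2 stood at -0.10 with each siRNA and GNL3L at -0.06 and -0.07, none past the test. In the PeBoW complex, which joins PES1, BOP1 and WDR12 on the early large subunit, PES1 stood at -0.08 and -0.11 and WDR12 at -0.06 and -0.09, and neither passed. Without siCtrl replicate 6, PES1 stood at -0.14 with siRagC1 (adjusted p = 0.0731) and at -0.17 with siRagC2, which passed (adjusted p = 0.0303). With siRagC2, PES1 passed in 1 of 18 fits with 1 library left out.

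Of the late large-subunit factors, NIP7 fell with siRagC1 and MRTO4 with siRagC2. NIP7, which acts in late nuclear maturation, had 40.4, 44.7 and 46.3 CPM with siRagC1 and 42, 44.2 and 47.8 CPM with siRagC2, against 48.0, 48.9 and 51.9 CPM with siCtrl. All 12 siRNA libraries were below all controls. It fell by 11.5% with siRagC1 (-0.18 ± 0.0448, adjusted p = 0.0426), a call held in 8 of 18 fits with 1 library left out and lost with upper-quartile factors, no filter on low counts or only the compared groups. It stood at -0.14 ± 0.0451 with siRagC2 (adjusted p = 0.0846). MRTO4, a placeholder for the ribosomal stalk, had 76.2, 78.0 and 79.4 CPM with siRagC1 and 73.7, 77 and 80.1 CPM with siRagC2, against 79.5, 86.2 and 95.3 CPM with siCtrl. Every siRagC1 library was below every control, by a narrow margin, and the siRagC2 range crossed the lowest control. The test passed for siRagC2 (-0.17 ± 0.0398, adjusted p = 0.0202) and held in 14 of 18 such fits. It missed for siRagC1 (-0.15 ± 0.0395, adjusted p = 0.0507). There it passed in 3 of 18 such fits, including the one without siCtrl replicate 6 (adjusted p = 0.0176). NOP53, which recruits the RNA exosome to the large-subunit precursor, was the member with the highest value in both comparisons, at 0.20 ± 0.0979 and 0.19 ± 0.0984 (adjusted p = 0.306 and 0.3). It was above the control of the same number in 6 of 6 libraries of each siRNA. Its 48.7 CPM in siCtrl replicate 6, against 80.3 CPM in the next control, entered those values, and without that library NOP53 stood at 0.10 and 0.09 (adjusted p = 0.346 and 0.401).

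Among the snoRNP proteins, NOP58 was the 1 of 9 called, and it was called with both siRNAs. NOP58 (ENSG00000055044), a core protein of the box C/D particles that guide ribose methylation, had 59.9, 65.2 and 70.0 CPM with siRagC1 and 57.1, 62.8 and 66.3 CPM with siRagC2, against 68.4, 73.0 and 78.4 CPM with siCtrl. All siRagC2 libraries were below all controls and the top of the siRagC1 range passed the lowest control. NOP58 fell by 10.7% with siRagC1 (-0.16 ± 0.0418, adjusted p = 0.0433) and fell by 15.0% with siRagC2 (-0.23 ± 0.0421, adjusted p = 0.00468), which held in 5 and 18 of 18 fits with 1 library left out. The box C/D partners did not pass: NOP56 stood at -0.17 and -0.18 (adjusted p = 0.12 and 0.0974), FBL, the methyltransferase, at -0.06 and -0.04, and SNU13, which binds the kink-turn of the RNA, at -0.05 and -0.03. The box H/ACA particles, which carry the pseudouridine synthase DKC1, were split. DKC1 stood at -0.15 ± 0.0438 and -0.10 ± 0.0439 (adjusted p = 0.0725 and 0.214) and GAR1 at -0.07 and -0.08. NHP2 stood at 0.06 and 0.02 and NOP10 at 0.07 and 0.01. NOLC1, a chaperone of both kinds of particle, stood at -0.14 ± 0.0398 and -0.11 ± 0.0399 (adjusted p = 0.075 and 0.132). With siRagC1, DKC1 passed in 1 and NOLC1 in 2 of 18 fits with 1 library left out. Both passed without siRagC1 replicate 6 (adjusted p = 0.0144 and 0.0216). That fit called 371 genes lower over the whole table, against 96 with all libraries.

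Of the abundant nucleolar proteins, the RNA helicase DDX21 fell with both siRNAs. DDX21 (ENSG00000165732) had 280.0, 336.0 and 375.0 CPM with siRagC1 and 304.0, 344.0 and 355.0 CPM with siRagC2, against 330.0, 375.0 and 433.0 CPM with siCtrl. The groups overlap across the series, and each siRNA library was below the control of its own number in 6 of 6. DDX21 fell by 12.7% with siRagC1 (-0.20 ± 0.0423, adjusted p = 0.0187) and fell by 11.7% with siRagC2 (-0.18 ± 0.0423, adjusted p = 0.0226), and the calls held in 16 and 15 of 18 fits with 1 library left out. NCL, which encodes nucleolin, stood at -0.11 ± 0.0343 and -0.06 ± 0.0343 (adjusted p = 0.0851 and 0.392), and NPM1, which encodes the nucleolar scaffold nucleophosmin, at -0.05 and -0.08 (adjusted p = 0.651 and 0.336).

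**Figure D2:**
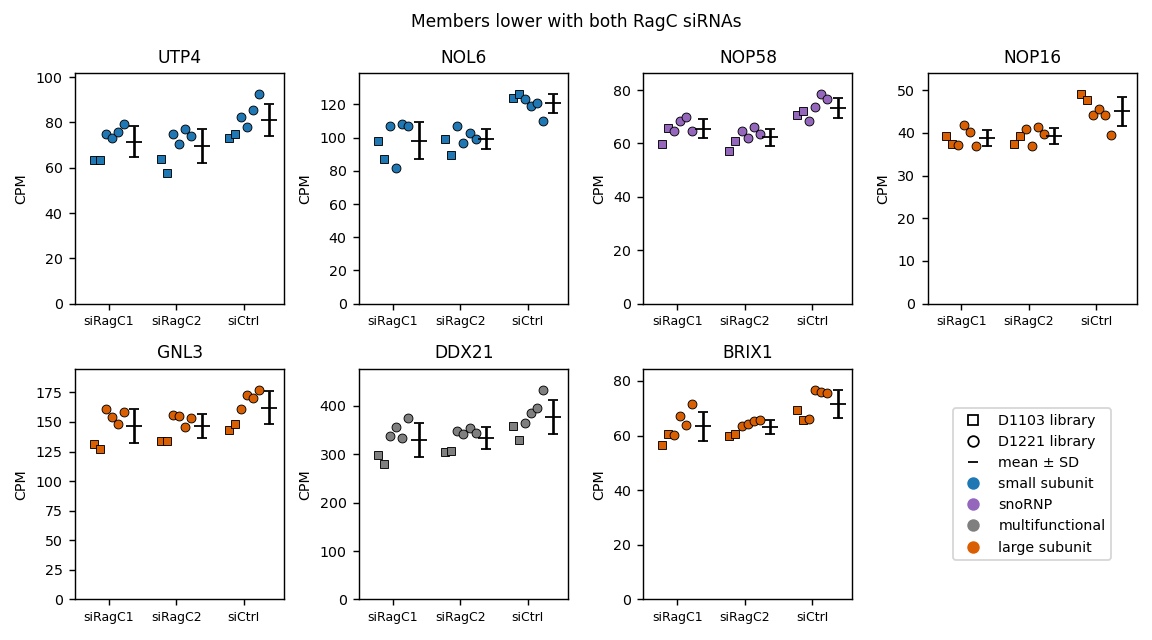
CPM in each library for the 7 members lower with both siRNAs, by group, with squares for D1103 and circles for D1221 libraries, colour for the arm, and the mean ± SD of 6 libraries beside them; every axis starts at 0. In NOL6 the siRNA libraries reach 108.0 and 107.0 CPM while the lowest siCtrl library is at 110.0 CPM, and in the other 6 genes the ranges of at least 1 siRNA and siCtrl overlap.

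Counting without strand could mix reads of a member with those of an antisense neighbour, and the sources used here do not give the strand setting. Exons of 20 members overlap a tested gene on the opposite strand, 8 of them among the 17 members called with either siRNA, including UTP4 (with CHTF8), NOP16 (with ARL10 and HIGD2A), GNL3 (with GLT8D1) and BRIX1 (with RAD1). None of the 9 genes that overlap called members was itself called with either siRNA by edgeR. CHTF8 stood at 0.04 and -0.05, GLT8D1 at -0.01 and 0.04 and RAD1 at -0.08 and -0.03. PPAN overlaps P2RY11 on its own strand, so its counts are uncertain.

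Set against each other, the small-subunit and large-subunit arms had medians close to each other. The small-subunit median was -0.11 with siRagC1 and -0.14 with siRagC2, the large-subunit median -0.12 and -0.11. The small-subunit median minus the large-subunit median was 0.0114 with siRagC1 and -0.0246 with siRagC2, differences that were not tested. With 1 library left out they ran from -0.003916 to 0.03473 with siRagC1 and from -0.03485 to -0.008236 with siRagC2. Negative values were found in 26 of 27 small-subunit members with either siRNA, and in 17 and 16 of 18 large-subunit members. The snoRNP proteins had medians of -0.07 and -0.08 with 7 of 9 negative in each comparison. 

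The libraries gave the same picture one by one. Measured as the median log2 difference from the siCtrl mean of the same code series, the small-subunit arm was at -0.14 to -0.07 in the siRagC1 libraries and -0.19 to -0.11 in the siRagC2 libraries, against -0.03 to 0.06 in the siCtrl libraries. The large-subunit arm was at -0.20 to -0.07 with siRagC1 and -0.17 to -0.07 with siRagC2, against -0.04 to 0.05 with siCtrl. For both arms all 12 siRNA libraries lay below all 6 controls. Each control is itself part of the mean it was measured from, which narrows the control range by construction. The separation is therefore partly built into this measure. The snoRNP proteins were at -0.14 to 0.01 with siRagC1 and -0.15 to -0.02 with siRagC2, against -0.05 to 0.05 with siCtrl, and here siRagC1 replicate 6 and siRagC2 replicate 5 reached into the control range. The median over all tested genes stayed between 0.0001 and 0.019 in every siRNA library. The small-minus-large difference ran from -0.02 to 0.06 with siRagC1 and from -0.07 to 0.05 with siRagC2, against -0.03 to 0.10 with siCtrl, where the 0.10 belonged to siCtrl replicate 6.

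**Figure D3:**
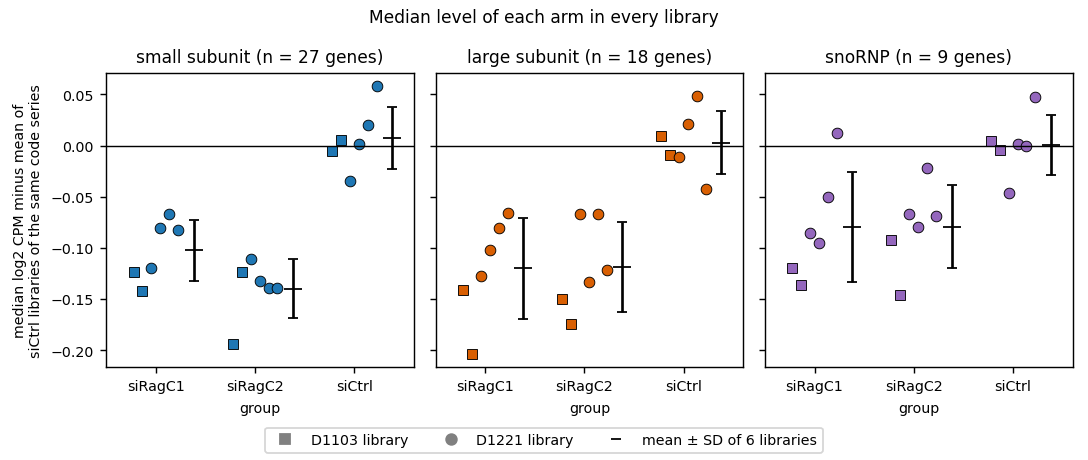
Median log2 CPM of each arm in every library, relative to the mean of the siCtrl libraries of the same code series (squares D1103, circles D1221), with the mean ± SD of 6 libraries. For the small-subunit and large-subunit arms all siRagC1 and siRagC2 libraries are below all siCtrl libraries, and for the snoRNP proteins 1 siRagC1 library is above 0. Each siCtrl library is part of the mean it is set against, so the spread of the controls is narrowed by construction.

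More small-subunit members were called with siRagC2 (8) than with siRagC1 (3), but the siRNAs were not shown to differ. Tested directly, siRagC1 against siRagC2 gave 0 called members by edgeR, limma-voom and DESeq2. Of all genes, edgeR and limma-voom called 0 in either direction, and DESeq2 called 11 lower and 18 higher with siRagC1. In edgeR the D1103 libraries alone called 97 genes lower and 134 higher, with 0 members among them. At an unadjusted p under 0.05 in edgeR's fit to all libraries there were 2 members, UTP20 and DCAF13. Both were higher with siRagC1, where 4.15% of all genes were higher and 3.61% lower. DCAF13 differed by 0.14 (adjusted p = 0.514) and UTP20 by 0.20 (adjusted p = 0.561), and over all members the difference ran from -0.17 to 0.20, negative in 22 of 57, where it was negative in 50.3% of all genes. With siRagC1 the small-subunit calls went to 1 without its replicate 1 or 2 or siCtrl replicate 1 or 2, and to 5 without its replicate 6 or siCtrl replicate 6. With siRagC2 they went to 3 without its replicate 1, to 4 without its replicate 4 or 5, and to 2 and 5 without siCtrl replicates 1 and 2. The large-subunit calls with siRagC1 went to 0 without its replicate 1 or 2 or siCtrl replicate 1 or 2, to 1 without its replicate 4 or siCtrl replicate 4 or 5, and to 2 without its replicate 3 or 5. Those with siRagC2 went to 0 without its replicate 1 or 4 or siCtrl replicate 1 or 2, to 1 without siCtrl replicate 4, to 2 without its replicate 2 or 5 or siCtrl replicate 5, and to 7 without siCtrl replicate 6. Genes called lower over the whole table ran from 12 to 371 with siRagC1 and from 70 to 258 with siRagC2 in these fits.

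Most members leaned lower in both code series, which share no libraries. In a single fit with separate effects, chosen after the data were seen, the median over all members with siRagC1 was -0.15 in D1103 and -0.09 in D1221, and with siRagC2 -0.15 and -0.11. In fits to each series alone, the median of all tested genes with siRagC1 was 0.0045 in D1103 and 0.0061 in D1221. With siRagC2 that median was 0.0020 and 0.0030. In the single fit, 49 of 57 members were negative in both series with each siRNA. For D1103 and D1221, edgeR in that single fit called 0 and 0 members with siRagC1 (22 and 20 at an unadjusted p under 0.05). With siRagC2 it called 3 and 0 (23 and 20), the 3 being IMP4, NOP16 and MRTO4 in D1103. The fit to the D1103 libraries alone, with its own estimate of the spread, called 7 members with siRagC1 and 14 with siRagC2. Values were more negative in D1103 for 44 members with siRagC1 and 39 with siRagC2. Shares of all genes were not computed for these counts, so whether they are particular to the members was not tested. The test of the difference between series called 0 members with either siRNA by edgeR, limma-voom and DESeq2, and 0% of all genes by edgeR. At an unadjusted p under 0.05 it gave 0 members with siRagC1, where 2.03% of all genes passed, and 3 with siRagC2 (5.26%), where 6.66% did: WDR46, IMP4 and NOP14. IMP4 stood at -0.45 in D1103 and -0.15 in D1221 with siRagC2.

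**Figure D4:**
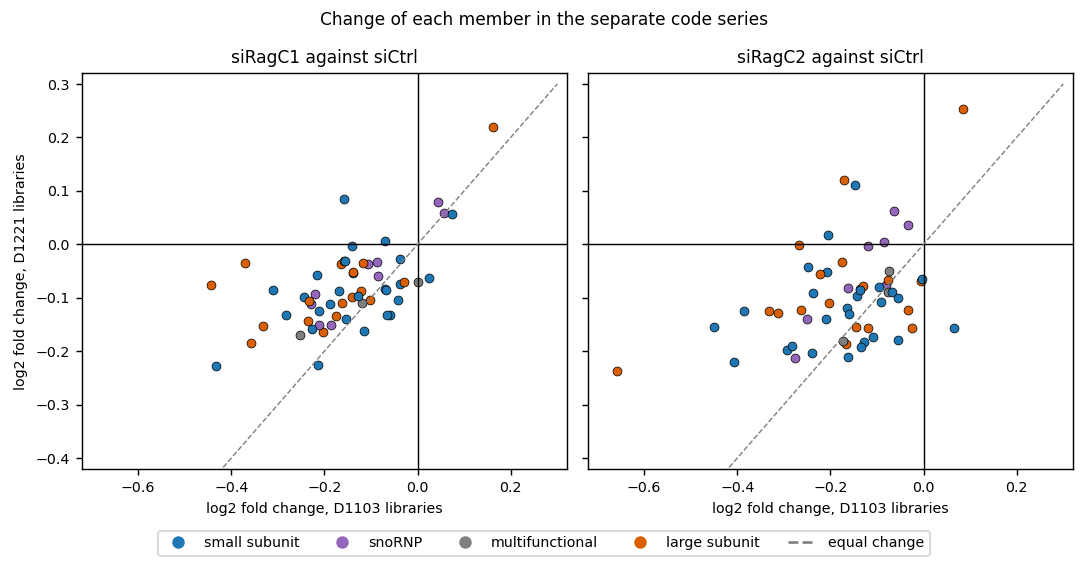
The log2 fold change of each member in the D1103 libraries (horizontal) and the D1221 libraries (vertical) with siRagC1 (left) and siRagC2 (right) against siCtrl, coloured by arm; the dashed line marks equal change. In each panel 49 of 57 members are in the lower left field, negative in both series.

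Compared per kilobase of exon, the members span a wide range of levels. In siRagC1, siRagC2 and siCtrl libraries NPM1 averaged 265.0, 259.0 and 274.0 CPM per kilobase, NOP10 123.0, 119.0 and 118.0 and DDX21 65.8, 66.5 and 75.3. At the low end PPAN averaged 1.45, 1.63 and 1.62 CPM per kilobase. The length used joined all annotated exons of a gene, not the transcripts expressed, so differences between genes may partly reflect that length. Subunits of one complex differed in this measure. Within UtpA the siCtrl mean went from 5.08 CPM per kilobase for UTP15 to 22.1 for NOL11, and within UtpB from 5.64 for TBL3 to 31.2 for UTP18. GNL3, at 48.9 CPM per kilobase in siCtrl, exceeded GNL2 at 15.8 and GNL3L at 13.7.

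Promoter sequence was read for the members because most of them had negative values. RefSeq (GRCh38.p14) gives a promoter window for 48 of the 57 members, and the 250 bases before the start were searched on both strands for the E-box CACGTG, which MYC and the TFEB family bind, the ETS-type CCGGAAG and the palindrome TCGCGA. The E-box was in 8 member windows (16.7%), against 11% of the windows of all tested genes. CCGGAAG was in 20 (41.7%), against 18.5%, and TCGCGA in 9 (18.8%), against 5.92%. By arm, CCGGAAG was in 9 of 24 small-subunit windows (37.5%) and 7 of 15 large-subunit windows (46.7%). In the windows of members called with either siRNA and of members not called, CCGGAAG was in 8 of 15 (53.3%) and 12 of 33 (36.4%), the E-box in 3 (20%) and 5 (15.2%), and TCGCGA in 2 (13.3%) and 7 (21.2%). The matches describe letters only. The stretches below, on the plus strand and 5′ to 3′, are shown for the called members whose window holds a match in a run of bases free of annotated transcripts, with matches in capitals; the ETS-type motif on the other strand reads CTTCCGG. They are WDR3 at chr1:117929631-117929719, LTV1 at chr6:143843238-143843337 and DDX21 at chr10:68956028-68956127.
WDR3: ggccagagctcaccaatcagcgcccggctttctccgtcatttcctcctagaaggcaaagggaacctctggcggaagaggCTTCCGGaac
LTV1: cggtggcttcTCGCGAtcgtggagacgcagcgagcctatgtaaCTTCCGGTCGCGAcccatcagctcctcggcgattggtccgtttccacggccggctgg
DDX21: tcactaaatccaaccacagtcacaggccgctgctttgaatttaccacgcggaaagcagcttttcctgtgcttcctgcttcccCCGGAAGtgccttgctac

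Other genes of the pathway leaned the same way, with a smaller share called than among the members. Over all genes, 0.627% were called lower with siRagC1 and 1.36% with siRagC2. Of 33 further small-subunit factors 1 fell with siRagC1 (PNO1, 3.03%) and 3 with siRagC2 (NAT10, PDCD11 and RIOK1, 9.09%). These names were given after their values were seen, and the medians were -0.10 and -0.10. Of 46 further large-subunit factors 4 (8.7%) fell with siRagC1 and 8 (17.4%) with siRagC2, with medians of -0.08 and -0.10. GTPBP4, LSG1, RRP15 and URB2 fell with both, where 0.314% of all genes did. RRP15, a factor of the precursor of the large subunit, averaged 47.0 ± 5.07 CPM with siRagC1 and 43.8 ± 4.29 CPM with siRagC2, against 53.7 ± 4.72 CPM with siCtrl (SD, n = 6 each), log2 fold changes of -0.19 and -0.30 (adjusted p = 0.0418 and 0.0032 in edgeR). GTPBP4, another nucleolar GTPase, averaged 154.0 ± 17.5 and 156.0 ± 15.1 CPM, against 178.0 ± 16 CPM with siCtrl (-0.21 and -0.19, adjusted p = 0.0118 and 0.0164). URB2 stood at -0.23 and -0.25, and LSG1, a GTPase of cytoplasmic maturation, at -0.18 and -0.22. In the RNA exosome and trimming list of 17, EXOSC2, a core exosome subunit, was the 1 called (5.88%). It fell with both siRNAs (-0.21 and -0.20, adjusted p = 0.0311 and 0.0346). In the list of 17 for RNA polymerase I and MYC, POLR1E, a polymerase I subunit, was the 1 called (5.88%). It fell with both (-0.21 and -0.25, adjusted p = 0.0332 and 0.0106). None of the genes of these 4 lists rose by edgeR's test, where 1.41% of all genes did with siRagC1 and 1.87% with siRagC2. At an unadjusted p under 0.05 there were also 0 higher, where 9.26% and 9.93% of all genes were. MYC, added after its values were seen, averaged 133.0 ± 4.92 CPM with siRagC1 and 129.0 ± 11.3 CPM with siRagC2, against 130.0 ± 8.63 CPM with siCtrl, with log2 fold changes of 0.03 and -0.01 (adjusted p = 0.824 and 0.929).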

How the data were processed

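RNA-seq was analysed from 18 libraries of MDA-MB-231. Raw counts of 57820 gene identifiers, 51996 with a symbol, were deposited by the authors as a single table. Per the submitters' processing notes, cutadapt, STAR 2.7.6a and GRCh37/hg19 were used. The counter, its strand setting and the annotation were not given in the sources used here. Groups and replicate numbers came from the sample titles and the code series from the library codes. Replicate pairs varied 2.88 to 81.6 times more than counting alone allows, so no library duplicated another.

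The quasi-likelihood F test of edgeR 4.0.16 (R 4.3.3), in its robust form, was fitted to all 18 libraries with terms for group and code series, after TMM scaling and filterByExpr. The p-values were adjusted by Benjamini-Hochberg over all 15307 genes, and a gene was called at an adjusted p under 0.05. The procedure was tested on simulated counts. Arms and lists are described by counts and medians, with no test of a list. Exon lengths and overlaps came from GENCODE annotation, chromosomes from RefSeq and promoters from RefSeq GRCh38.p14. Named genes were the members called in any comparison, the members with the lowest and highest mean change in each role group, and other pathway genes called with both siRNAs; further members are given by value where their complex is described. Members, lists and this rule were chosen with earlier results of these data known. Residuals from the group mean correlated at 0.116 to 0.492 between same-numbered siRagC2 and siCtrl libraries. They correlated at 0.221 to 0.582 between siRagC1 and siRagC2, and at 0.0765 to 0.61 between siRagC1 and siCtrl. The code series was not removed first, and differently numbered libraries of a series were not compared. These values therefore cannot tell pairs by number from a shared series, and the labels do not state pairs. As alternatives, the fit was repeated with upper-quartile or RLE factors, without a filter or with one of 5 CPM in 6 libraries, with limma-voom (limma 3.58.1) or DESeq2 1.42.0, with a replicate block, without the series term, on only the compared groups, on each series alone and without each library in turn. Reads and protein were not analysed here.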

Additional observations from a re-analysis of the deposited data

Results flagged for a closer look

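In 3 members siCtrl replicate 6 lay far below the other controls. TBL3 had 26.1 CPM there, with the next control at 40.1 CPM. NOP53 had 48.7 CPM there, with the next control at 80.3 CPM. RRP9 had 25.2 CPM there, with the next control at 33.9 CPM. GNL3L had 27.8 CPM in siRagC2 replicate 2, with the next siRagC2 library at 33.6 CPM. Of 102 groups of 6 libraries examined for the named members, these 4 had an end value whose gap to its neighbour exceeded Dixon's limit for 6 values, and chance gives about 5.1. That number does not weigh that 3 of the 4 lie in siCtrl replicate 6. Over the whole table, this library varied 22.4, 21 and 16.5 times more than counting alone from siCtrl replicates 3, 4 and 5. Among themselves those controls varied 2.88 to 4.48 times. In siRagC1, replicate 4 varied 34.9, 27.1 and 27.3 times from replicates 3, 5 and 6.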

How the results depend on the processing

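The calls rest on small changes, and their number moved with the fit while the direction of the calls did not: no member was called higher in any fit against siCtrl but NOP53 with no filter on low counts, with each siRNA. The members lower with siRagC1, 10 as reported, were 18 with DESeq2, 17 with the replicate block, 1 with only the compared groups, and 0 with no series term or with D1221 alone, and 1 to 17 with 1 library left out. With siRagC2, 14 as reported, they were 22 with DESeq2, 0 with no series term or D1221 alone, and 3 to 19 with 1 library left out. With both siRNAs, 7 as reported, they were 13 with DESeq2, 12 with the replicate block, 0 with no series term, only the compared groups or D1221 alone, and 0 to 12 with 1 library left out. Genes called lower over the whole table also grew, to 338 and 516 with DESeq2 and 361 and 426 with the block, against 96 and 208 as reported. They fell to 1 and 7 with no series term, 1 and 0 with D1221 alone, and 26 and 138 with only the compared groups. With 1 library left out they ran from 12 to 371 with siRagC1 and from 70 to 271 with siRagC2. With siRagC1 the block added DKC1 (adjusted p = 0.0194), NOLC1 (0.0264), MRTO4 (0.0319), PWP2 (0.0486), NCL, NOL11 and NOP56. The block gave 19 with siRagC2 and 0 between the siRNAs, and 0 members differed between the series with it. Upper-quartile factors lost BRIX1, NIP7 and NOP58 with siRagC1 and UTP6 with siRagC2. No filter lost BRIX1 and GNL3 with both siRNAs, NIP7 and NOP58 with siRagC1, and MRTO4, UTP6 and WDR43 with siRagC2. Only the compared groups left LTV1 with siRagC1 and lost GNL3, MRTO4, NOP16, UTP6 and WDR43 with siRagC2. Between the siRNAs, 1 member (UTP20, higher with siRagC1) was called with no filter. The large-subunit median was -0.1617 with siRagC1 and -0.1688 with siRagC2 in D1103 alone, and -0.1631 and -0.1689 as the D1103 effect of 1 fit. With 1 library left out the medians ran from -0.1161 to -0.1000 and -0.1509 to -0.1213 for the small subunit and from -0.1388 to -0.1055 and -0.1257 to -0.0983 for the large, and their difference from -0.003916 to 0.03473 and -0.03485 to -0.008236. Among the named members' log2 fold changes under settings other than leaving out a library, 620 kept their direction and their side of the threshold, 87 no longer passed it, 31 newly passed it and 10 changed sign, all of the last in members not called. TBL3 with siRagC1 was 0.005774 with upper-quartile factors, 0.005369 with the 5 CPM filter, 0.007784 with limma-voom, 0.001223 with the replicate block, 0.001298 with only the compared groups, 0.08384 in D1221 alone and -0.09852 to 0.0328 with 1 library left out. TBL3 with siRagC2 was -0.1474 in D1103 alone and -0.07743 to 0.05979 with 1 library left out. NPM1 with siRagC1 was 0.002176 in D1103 alone, SNU13 with siRagC2 0.004403 in D1221 alone, and NOP10 with siRagC2 -0.03468 in D1103 alone and -0.007872 to 0.04367 with 1 library left out. The cause was not tested. Depth was not compared between members; PPAN had the lowest CPM.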
